A study of Caenorhabditis elegans with 2 samples.

Results

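MicroRNA genes make the short RNAs that pair with messenger RNAs and lower their output, and the data here describe where SET-16 was found near these genes in Caenorhabditis elegans. The members were all nuclear genes with the biotype miRNA in the WBcel235 annotation, 261 genes of 46890 nuclear genes in all. Each gene was given a window from 1000 bp upstream to 200 bp downstream of its annotated start, on its own strand, and a gene was counted as called when the summit (the highest point) of a peak lay in that window. A cluster here means miRNA genes on the same strand within 10000 bp of each other, and its members often share a summit.

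SET-16 was measured by chromatin immunoprecipitation and sequencing (ChIP-seq) through an anti-GFP antibody in 2 biological replicates of 1 group. The animals were whole L4 larvae of strain RW12223, aged 48 hours, synchronised as starved L1 larvae after bleaching. They carried the allele st12223, a CRISPR insertion on chromosome III that joins TY1, EGFP and 3xFLAG tags to the endogenous set-16 gene, so the tagged protein was made from its own locus. No untagged, mutant or other-stage group is part of the data used here, a control experiment named in the labels was not analysed here, and 1 tagged strain stands for the protein. All tissues of the animal were mixed, so a peak cannot be assigned to a cell type, and no RNA was measured that could check the stage or show which miRNA genes were active.

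In mammals the relatives of SET-16 are MLL3 and MLL4, histone H3 methyltransferases of COMPASS-type complexes that are known for their work at promoters and enhancers. A miRNA is cut out of a hairpin in a longer primary transcript, and the hairpin may lie in a transcript of its own or in an intron of another gene. Bases 2 to 8 of the mature miRNA, the seed, set most of its targeting, so miRNAs with the same seed are grouped as a family. In worms, lin-4 and the let-7 family time the larval stages, the mir-35 and mir-51 families are needed for embryonic development, and the mir-58 family, related to fly bantam, acts on body size and growth signalling.

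The mature sequences of these families are shown because the seed is the base of most family groups. Families below follow a set list of named families, and grouping by seed alone is used only where stated. They were read from the RefSeq annotation and genome (WBcel235), are printed 5′ to 3′, and have the seed in capitals. A mature sequence was found for 260 of the 261 members, and 109 members share a seed with at least 1 other member. The last 2 lines show why mir-58.1 stands apart when families are drawn by seed alone: its seed is GAGAUCG, whereas mir-80 has GAGAUCA. Other listed members differ too, such as mir-2209.2 of the mir-58 family (GAGAUGA) and mir-793 of the let-7 family (GAGGUAU). Y73B6A.17 has GAGAUCA and is not listed in the mir-58 family.
lin-4: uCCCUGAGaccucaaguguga
mir-237: uCCCUGAGaauucucgaacagcu
let-7: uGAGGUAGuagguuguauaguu
mir-48: uGAGGUAGgcucaguagaugcga
mir-84: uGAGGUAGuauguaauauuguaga
mir-241: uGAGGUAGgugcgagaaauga
mir-52: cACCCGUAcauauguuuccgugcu
mir-54: uACCCGUAaucuucauaauccgag
mir-35: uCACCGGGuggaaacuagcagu
mir-42: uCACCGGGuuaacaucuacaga
mir-58.1: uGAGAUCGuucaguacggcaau
mir-80: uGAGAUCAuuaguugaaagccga

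The DNA under the strongest family summits is shown next, because these are the sites where the signal was highest, together with the summits of let-7 and of the mir-35 cluster. Each line is 101 bases centred on a summit of the conservative list (the stricter of the lists made from both libraries), on the strand of the miRNA gene, from the RefSeq genome of build WBcel235. Capitals mark GAGAGA on either strand (TCTCTC on the other), CAGCTG and CACGTG, which are searched for further on. Runs of more than 6 capitals are overlapping matches.
mir-52 (chrIV:14033699-14033799, plus strand): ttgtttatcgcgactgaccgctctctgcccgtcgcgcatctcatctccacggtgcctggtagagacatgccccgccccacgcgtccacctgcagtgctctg
mir-241 (chrV:14366750-14366850, minus strand): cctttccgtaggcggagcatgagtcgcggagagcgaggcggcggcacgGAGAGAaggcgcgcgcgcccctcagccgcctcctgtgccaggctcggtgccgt
mir-54, mir-55, mir-56 (chrX:13145228-13145328, minus strand): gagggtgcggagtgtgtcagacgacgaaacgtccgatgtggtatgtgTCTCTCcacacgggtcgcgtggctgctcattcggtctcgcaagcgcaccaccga
lin-4 (chrII:5901858-5901958, plus strand): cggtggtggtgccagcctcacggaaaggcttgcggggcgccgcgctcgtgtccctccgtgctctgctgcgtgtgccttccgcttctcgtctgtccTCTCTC
mir-58.1 (chrIV:3232897-3232997, plus strand): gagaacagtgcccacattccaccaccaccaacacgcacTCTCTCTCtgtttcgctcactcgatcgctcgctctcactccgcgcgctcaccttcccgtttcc
mir-80 (chrIII:8865538-8865638, minus strand): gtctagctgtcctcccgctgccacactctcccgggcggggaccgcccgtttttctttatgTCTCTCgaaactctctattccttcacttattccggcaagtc
let-7 (chrX:14744578-14744678, minus strand): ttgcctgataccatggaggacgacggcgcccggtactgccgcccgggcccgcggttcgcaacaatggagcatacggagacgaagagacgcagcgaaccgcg
mir-35 to mir-40 (chrII:11537233-11537333, plus strand): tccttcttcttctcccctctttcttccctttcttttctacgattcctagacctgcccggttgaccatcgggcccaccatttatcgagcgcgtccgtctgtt

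The deposited peaks come in 8 lists, with 5795 peaks in the conservative list, 6905 in a second thresholded list from both libraries, 5876 in the replicate 1 list and 4377 in the replicate 2 list. The 4 ranked lists behind them hold 25790 to 35606 peaks and reach much weaker ones. Signal is the authors' value for each peak on a scale they do not name in those lists, and values are compared only within a list. The median conservative signal over all peaks was 170. Read depth is unknown because the lists hold no read counts, and the 95% exact (Clopper-Pearson) intervals below cover counting error only.

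Of the 261 miRNA genes, 47 had a conservative summit in the window, which is 18.0% (interval 13.5 to 23.2). Over all nuclear genes the share was 6.29%, and over the 19973 protein-coding genes it was 6.99%. Replicate 1 gave 52 miRNA genes (19.9%) where all nuclear genes gave 6.22%, and replicate 2 gave 42 (16.1%) where all genes gave 5.62%. In both replicate lists at once the count was 38 miRNA genes (14.6%), beside 4.02% of all genes. With the second whole-series list it was 53 (20.3%), beside 7.54% of all genes. In each of these 5 counts the miRNA share was above the all-gene share, and its lower bound was too. The bounds count each gene as independent, although genes of a cluster often share a summit.

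Other genes for small noncoding RNAs had shares in the same range as the miRNA genes. With the same window and the conservative list, 77 of 346 snoRNA genes (22.3%), 125 of 612 tRNA genes (20.4%) and 23 of 129 snRNA genes (17.8%) were called. Long noncoding lincRNA genes had 19 of 194 (9.79%) and genes annotated as ncRNA 983 of 7764 (12.7%). The piRNA genes had 148 of 15363, or 0.963%. They are part of the all-gene count and lower its share. In this count the interval of the miRNA share holds the snoRNA, tRNA and snRNA shares, and lies above those of ncRNA, lincRNA and piRNA genes. That order depends on the count. With each miRNA cluster counted once, the interval of 10.7 to 20.9 holds the ncRNA share and lies below the snoRNA share. The other biotypes were not counted by cluster. In the ranked conservative list the miRNA interval of 30.9 to 42.9 holds the ncRNA share, 33.7%, and lies below the tRNA and snoRNA shares.

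Between the replicate lists, the 38 miRNA genes with a summit in both were 73.1% of the 52 in replicate 1 and 90.5% of the 42 in replicate 2, and 14 were in replicate 1 only and 4 in replicate 2 only. For all nuclear genes, the 1885 genes in both were 64.6% of the replicate 1 genes and 71.5% of the replicate 2 genes. The conservative list was made from both libraries, so its genes were not chosen independently of the replicate lists. Of its 47 miRNA genes, 37 had a summit in both replicate lists, 3 in replicate 1 only (mir-4936, mir-4935 and mir-233), 1 in replicate 2 only (mir-4929) and 6 in neither. These 6 were mir-42, mir-43 and mir-44, which share a summit, and mir-354, mir-8190 and mir-8212, and all these names other than mir-42 were chosen after their values were seen. In the other direction, mir-41 had a summit in each replicate list and none in the conservative list. Its 2 summits were different sites, so its place among the 38 does not rest on 1 shared site. The replicate 1 summit had 22.6 and ranked 5670 of 5876. The replicate 2 summit had 113, ranked 1657 and is the one shared by mir-35 to mir-40 in that list. A further 49 miRNA genes had a summit in the ranked conservative list and none in the conservative list, with a median ranked signal of 39.7 (range 6.28 to 122). Some of these also had a summit in a thresholded replicate list, and 135 miRNA genes had none in any of the 8 lists. In the ranked conservative list the count was 96 miRNA genes (36.8%), against 20.1% of all nuclear genes. There the tRNA share was 50.7% and the snoRNA share 54.6%. The share of all genes with no summit in any list was not counted.

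Because clustered genes share summits, the 47 genes rest on 34 distinct summits in 33 peaks. Of the 34, 25 had a summit within 100 bp in both thresholded replicate lists and 5 in neither. Of the 209 clusters and lone genes, 32 were called (15.3%, interval 10.7 to 20.9). Of these 34 summits, 20 lay in an intron of a protein-coding gene, 9 between genes and 5 in a coding exon. Only 4 also lay in the start window of a protein-coding gene, against 1287 of all 5795 conservative summits. These were the summits of mir-77 (window of srh-70 and ceh-99), mir-4936 (nduf-9), mir-4933 (W09H1.4) and mir-354 (Y105E8A.14 and ekl-4), named after their values were seen. Start windows of other noncoding genes held 15 of the 34 summits, and 7 lay on such a gene. In no start window of a coding or other noncoding gene lay 16. The same counts over all conservative summits were not made. A hairpin itself held 3 summits, and 12 of the 33 peaks overlapped a hairpin by at least 1 bp.

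The signal at these 34 summits had a median of 312, against 170 over all conservative peaks and 174 over the 1287 in protein-coding start windows. Its quartiles were 147 and 659, against 112.1 and 309.9 for all peaks. The top 10% of the whole list held 9 of the 34 (26.5%), beside 9.99% of all summits by construction, and the top 1% held 4. Those 4 belong to mir-52, mir-241, the trio of mir-54, mir-55 and mir-56, and lin-4. Across the 31 of the 34 sites with a ranked peak within 100 bp in both replicates, Spearman's rho between the replicate signals was 0.82 and Pearson's r of their log10 values 0.88, given as a description of sites that share libraries.

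**Figure D1:**
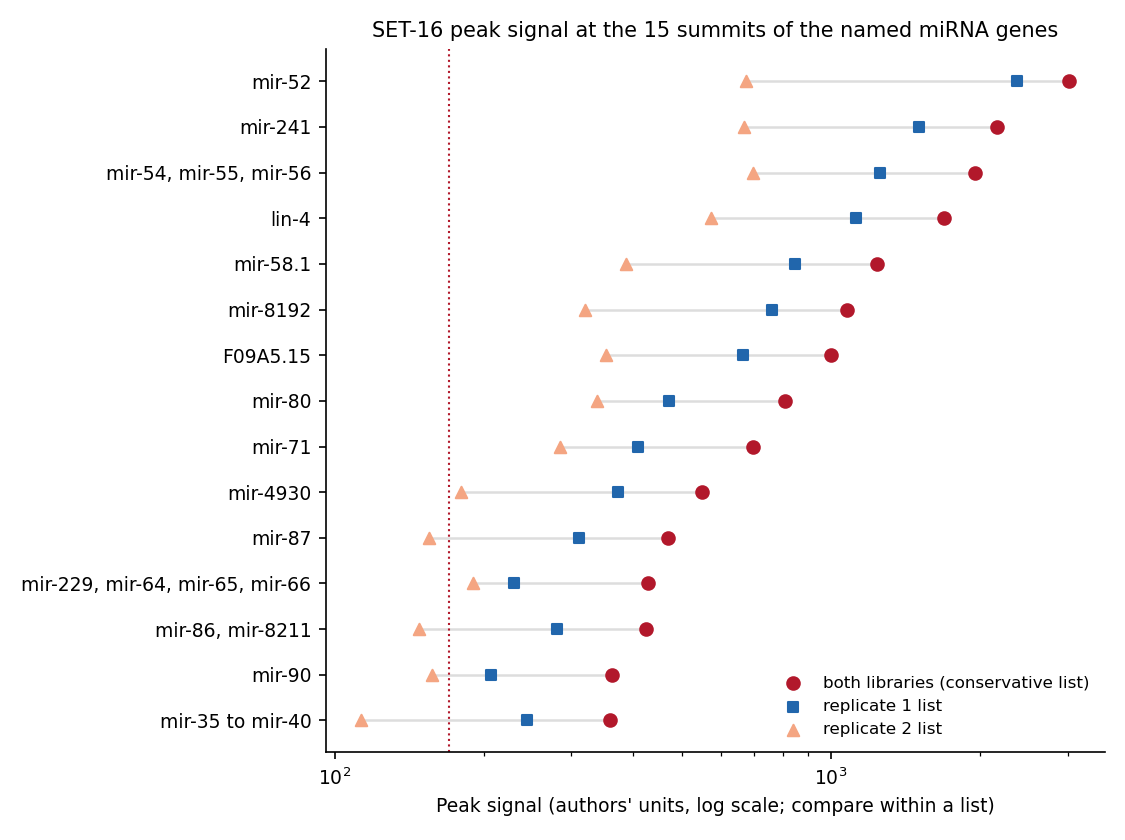
Peak signal (horizontal log axis, authors' units) at the 15 summits of the strongest miRNA genes, 1 row per summit, with circles for the conservative list of both libraries, squares for replicate 1 and triangles for replicate 2. The dotted line is the median of all conservative peaks, 170, and every circle lies to its right, from 358 at mir-35 to mir-40 up to 3023 at mir-52. These genes were picked for their high conservative signal, so their place right of the line reflects that choice. The other 21 called genes had a median of 149.

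The genes with the highest signal that were also called in both replicates were taken for closer description. Since mir-35 to mir-40 tie on the last place, this gave 26 genes on 15 summits, of which 12 are intronic and 3 intergenic. None of the 15 lay in a protein-coding start window, and their median distance from the nearest coding start was 3677 bp. Context and distance were not counted for the other conservative summits, so these values are not shown to be particular to the 15. Within the replicate lists the 15 summits ranked no lower than 1406 in replicate 1 and 1657 in replicate 2. The other 21 called genes had conservative signals of 40.2 to 333, with a median of 149.

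The mir-51 family held the strongest summit in any miRNA window. The gene mir-52 (chrIV:14034008-14034107, plus strand, outside protein-coding genes) had signals of 3023 in the conservative list, where it ranked 8 of 5795, 2376 in replicate 1 and 674 in replicate 2. Its summit lay 259 bp upstream of the hairpin, 10031 bp from the nearest coding start and on the noncoding genes Y37A1B.330 and Y37A1B.333. The trio mir-54, mir-55 and mir-56 lies on the X chromosome in an intron of F09A5.3, on the opposite strand. Their shared summit, 184 bp upstream of mir-54, had 1949 in the conservative list (rank 43), 1256 in replicate 1 and 696 in replicate 2. Thus 4 of the 6 members were called, and both remaining members had weaker summits. For mir-51 the ranked conservative signal was 122, with 22.8 in replicate 1 and 107 in replicate 2. That mir-51 summit passed the threshold in replicate 2 and in the second whole-series list. For mir-53 the ranked signals were 24.0, 9.80 and 13.2 in the same order.

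A miRNA gene on the opposite strand of the same trio had a summit of its own. F09A5.15 (chrX:13144830-13144919, plus strand) overlaps mir-55, has another seed (AACCGAU), and its summit 426 bp upstream lies beyond the far end of the trio. The signals there were 1003 in the conservative list (rank 227), 664 in replicate 1 and 352 in replicate 2. The trio is therefore bounded by a strong summit on each side.

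The let-7 family had 1 called gene of 7. That gene was mir-241 (chrV:14366188-14366283, minus strand, intergenic), with 2165 in the conservative list (rank 34), 1502 in replicate 1 and 667 in replicate 2, at 517 bp upstream. Its neighbour mir-48, downstream on the same strand, had a weaker summit 232 bp upstream in the ranked conservative list at 121, with 19.5 in replicate 1 and 97.9 in replicate 2. That mir-48 summit passed the threshold in replicate 2 and in the second whole-series list. For mir-84 the only summit in any list was 45.6 in replicate 1. No list had a summit in the windows of mir-793, mir-794 and mir-795.

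For let-7 itself the result depends on which start is used. The annotated gene is the primary transcript (chrX:14743590-14745321, minus strand), and no list had a summit in the window at its start. It is 1 of 7 members whose hairpin is shorter than the annotated gene. The hairpin lies further along, at chrX:14744173-14744271, and a conservative summit lies 357 bp upstream of it, 693 bp into the transcript. Signals at that summit were 769 in the conservative list (rank 379), 480.1 in replicate 1 and 294 in replicate 2. With windows drawn at the hairpins, a choice made after seeing the data, let-7 joined the called genes, the family count became 2 of 7 and the total became 48.

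In the lin-4 family, lin-4 was called and mir-237 was not. The lin-4 hairpin (chrII:5902254-5902347, plus strand) lies in an intron of F59G1.4 on the same strand. It had signals of 1690.1 in the conservative list (rank 53), 1125 in replicate 1 and 572 in replicate 2, 346 bp upstream and on the noncoding gene F59G1.12. For mir-237 no list had a summit in the window, and the nearest conservative summit, 2050 bp downstream of its start, had a signal of 105. The pair share a seed, as the sequences above show, and lie on different chromosomes.

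The mir-35 family, needed in the embryo, had 7 called genes of 8, resting on 2 summits. The genes mir-35 to mir-40 share the summit 325 bp upstream of mir-35, in an intron of Y62F5A.9 on the opposite strand (mir-35 is at chrII:11537608-11537704, plus strand). It had 358 in the conservative list (rank 1210), 244 in replicate 1 and 113 in replicate 2. The last hairpin of the cluster, mir-41, starts 1025 bp from this summit, so its window ends short of it, and it was not called. The separate gene mir-42 had 120 in the conservative list, shared with mir-43 and mir-44, and 65.1 and 54.0 in the ranked lists of replicates 1 and 2, neither within the thresholded lists.

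The mir-58 family had 2 called genes of 8. The gene mir-58.1 (chrIV:3233254-3233350, plus strand) lies in an intron of phkb-1, a phosphorylase kinase subunit gene, on the same strand. It had 1240.2 in the conservative list (rank 136), 848 in replicate 1 and 387 in replicate 2, at 307 bp upstream. For mir-80 (chrIII:8865270-8865367, minus strand, intergenic) the values were 809 (rank 349), 471 and 338 at 221 bp upstream. The paralogs mir-81 and mir-82 lie in introns of gid-2 and were not called. In the replicate 1 list mir-82 had 58.14, and in the second whole-series list 114.9. For mir-81 the only values were 26.8 and 16.9 in the ranked lists of replicates 1 and 2. Ranked conservative signals were 35.8, 65.9 and 35.8 for mir-2209.1, mir-2209.2 and mir-2209.3, and mir-58.2 had no summit in any list.

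**Figure D2:**
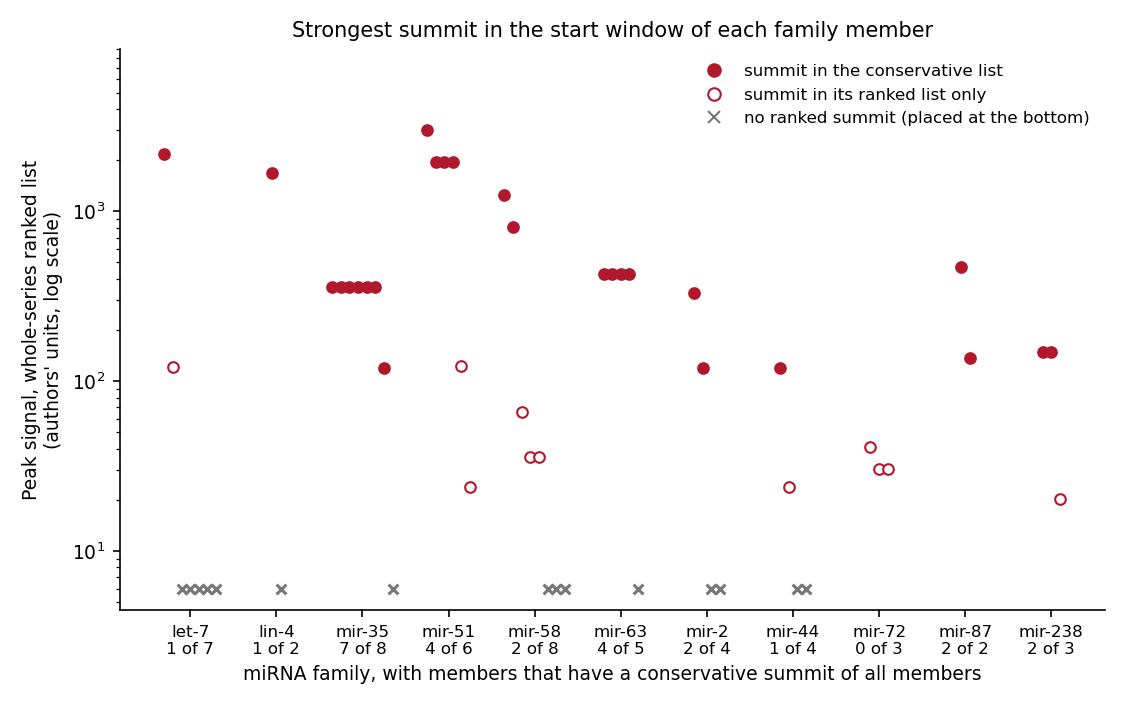
Signal of the strongest summit in the start window of each family member (vertical log axis, ranked whole-series list, authors' units), with filled circles for genes in the conservative list, open circles for genes in its ranked list only and crosses for genes with no ranked summit. The mir-51, mir-58, let-7 and lin-4 families each hold a member above 1000 and members at 122 or below or with no ranked summit, and the 6 genes mir-35 to mir-40 all sit at 358, their shared summit.

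The genes chosen for single roles fell on both sides. The gene mir-71, known for its effect on lifespan, lies in an intron of ppfr-1, a protein phosphatase regulatory subunit gene, and had 695 in the conservative list, 409 in replicate 1 and 285 in replicate 2, at 335 bp upstream. The neuronal miRNA gene mir-124, in an intron of the channel gene trpa-1, had 293, 176 and 117 in the same order, at 428 bp upstream. No list had a summit in the window of mir-1, a muscle miRNA gene, or of lsy-6, which sets left-right asymmetry in a pair of taste neurons. For mir-34, studied in stress responses, the ranked signals were 22.6, 10.7 and 15.6 in the conservative, replicate 1 and replicate 2 lists.

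The other strong genes were a mixture of older and more recently named miRNAs. In an intron of flcn-1, mir-8192 had 1078 in the conservative list, 762 in replicate 1 and 319.5 in replicate 2, with the summit 11 bp past its annotated start and 45 bp upstream of its hairpin. In an intron of Y38F2AR.10, mir-4930 had 550.0, 372 and 179. The gene mir-87, in an intron of kup-1, had 469.5, 311 and 155. A cluster of the mir-63 family, mir-229, mir-64, mir-65 and mir-66 in an intron of gcn-1, shared a summit of 428, 229.9 and 190.2. Both mir-86 and mir-8211 in Y56A3A.7 shared 423, 281 and 148, and mir-90, in an intron of K01F9.2, had 362, 206 and 157. Apart from mir-8192, these summits lay 71 to 379 bp upstream of the first hairpin of each locus, mir-8211 included at 87 bp.

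**Figure D3:**
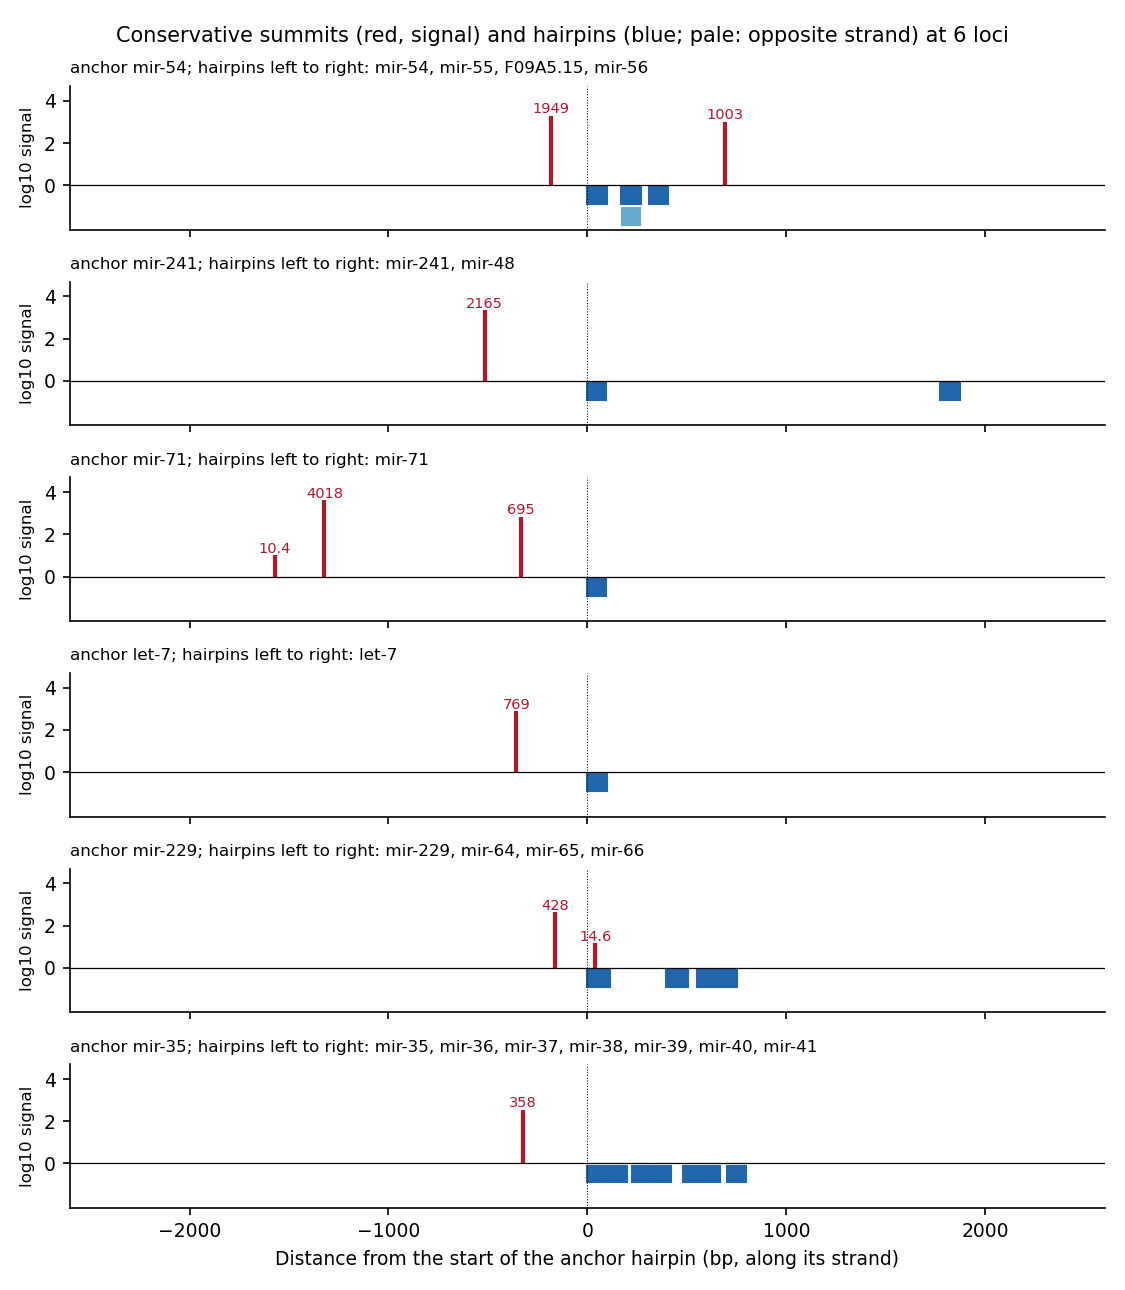
Conservative summits (red bars with their signal, vertical axis log10) and hairpins (blue boxes, pale on the opposite strand) at 6 loci, against the distance in bp from the start of the first named hairpin. At each locus a summit lies 161 to 517 bp upstream of the first hairpin, and at mir-54 a further summit of 1003 lies past the last hairpin.

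Among miRNA genes without a conservative summit, the 5 with the highest ranked signal were mir-51 (122) and mir-48 (121), described above, and mir-2213, mir-8187 and mir-1829.3. The gene mir-2213 had 111 in the ranked conservative list, 87.0 in replicate 1 and 26.4 in replicate 2. The values were 99.2, 61.8 and 38.7 for mir-8187, in an intron of ech-7, and 96.3, 16.1 and 81.0 for mir-1829.3, in an intron of piki-1. In each of the 5, the peak was in the thresholded list of 1 replicate only.

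Over all 73 members of the named families and single genes, 30 were called (41.1%, interval 29.7 to 53.2), against 17 of the other 188 (9.04%, interval 5.36 to 14.1). Grouped by seed instead, 31 of 109 genes that share a seed were called (28.4%), against 16 of 151 that share none (10.6%). By name, lin-4, let-7, lsy-6 and mir-1 to mir-90 had 27 of 59 (45.8%), mir-124 to mir-800 had 7 of 76 (9.21%), and the later names had 13 of 126 (10.3%). Over all nuclear genes the share was 6.29%, which lay within the interval of the 188. The intervals count each gene as independent, although clustered genes share summits, and no count per cluster was made for these groups. The family list was chosen with earlier results of these data known. The GC content of the windows moved with these groups: the median of the highest GC content in any 201 bp of the window was 53.2% in named families against 46.3% in the rest. Its part in the difference between the groups was not tested.

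The window reaches further upstream than downstream, so most summits in it lie upstream for any class of gene. Of the 47 called miRNA genes, 43 had their strongest summit upstream of the start (91.5%), against 82.0% of the 1397 called protein-coding genes and 88.3% of the 77 called snoRNA genes. The median place was 346 bp upstream (quartiles 572 and 231 bp upstream) for the miRNA genes, against 382 bp upstream (quartiles 689 and 87 bp upstream) for the protein-coding genes. Counting each of the 34 summits once, by its closest gene, the median was 284 bp upstream and 29 were upstream. In the bin from 500 bp upstream to the start, 29 of 261 miRNA genes had a summit (11.1%, interval 7.57 to 15.6), against 3.09% of protein-coding genes. From 1000 to 501 bp upstream it was 5.75%, against 2.87% of protein-coding genes. In the bins from 5000 to 1001 bp upstream, the miRNA share ran between 1.92% and 4.598%, and the coding share between 2.27% and 2.93%.

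**Figure D4:**
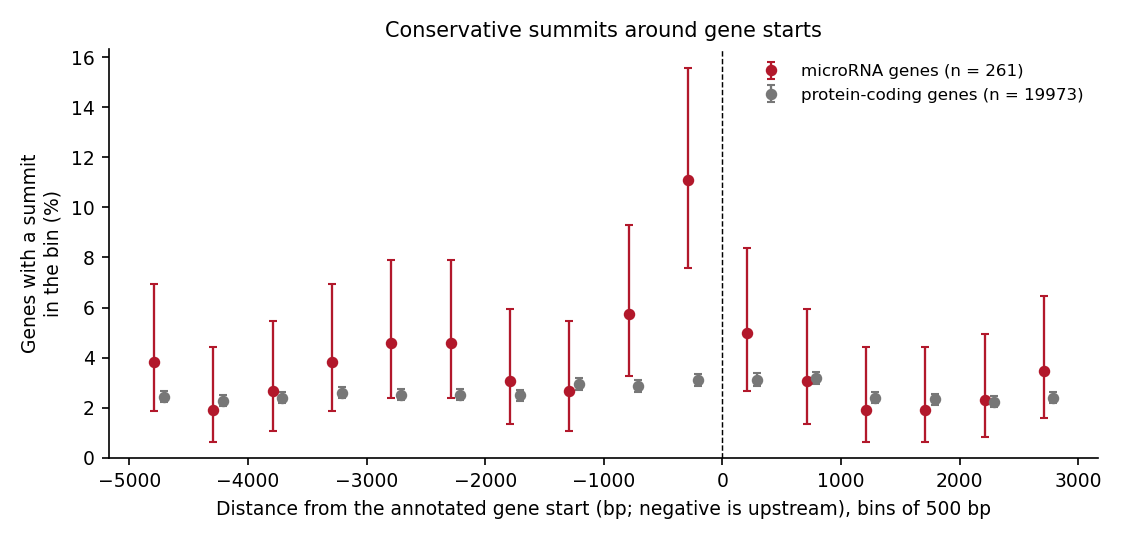
Share of genes with a conservative summit (vertical axis, percent, with 95% exact intervals) in 500 bp bins of distance from the annotated start, for the 261 miRNA genes and the 19973 protein-coding genes. The miRNA genes reach 11.1% in the bin just upstream of the start, where coding genes have 3.09%, and the intervals of the miRNA genes include the coding share in every bin that is 1001 bp or more upstream.

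Genomic context divided the members. Inside a protein-coding gene, 34 of 108 miRNA genes were called (31.5%, interval 22.9 to 41.1), against 13 of 153 outside (8.50%, interval 4.602 to 14.1). Counted once for each cluster, it was 22 of 92 clusters with a member inside (23.9%), against 10 of 117 wholly outside (8.55%). The share over all nuclear genes, 6.29%, lay within the interval of the 153 outside genes and below that of the 108 inside. Shares of other genes lying inside or outside protein-coding genes were not counted. For hosts on the same strand the count was 21 of 75 (28.0%), and for hosts on the opposite strand 13 of 33 (39.4%), with intervals that overlap (18.2 to 39.6 and 22.9 to 57.9). In introns it was 32 of 99 (32.3%). Genes within 10000 bp of another miRNA gene had 24 of 81 (29.6%), against 23 of 180 alone (12.8%), and shared summits add to that first count.

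Counts by chromosome were small, and shared summits weigh on them. On chromosome III 10 of 27 miRNA genes were called (37.0%, interval 19.4 to 57.6), against 10.3% of all nuclear genes there, and on chromosome II 15 of 49 (30.6%, interval 18.3 to 45.4), against 8.53%. Of the 15 on chromosome II, 9 rest on the summits of mir-35 to mir-40 and of mir-42 to mir-44, and 4 of the 10 on chromosome III are the mir-229 cluster. Chromosome I had 6 of 33 (18.2%), against 11.1% of all genes, X had 8 of 74 (10.8%), against 10.05%, and V had 3 of 28 (10.7%), against 6.33%. Chromosome IV had 5 of 50 (10%), against 2.72% of all genes. It holds 19704 of the 46890 nuclear genes, more than any other chromosome. All-gene shares include the 15363 piRNA genes, called at 0.963%, and shares by chromosome without them were not computed. With each cluster counted once, the shares ran from 11.4% on IV to 23.8% on III. The intervals of X (4.78 to 20.2) and III overlap, and no difference between chromosomes was tested. The strongest summit of all, at mir-52, is on chromosome IV.

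GC content moved with the calls. For each gene the highest GC content of any 201 bp stretch in the window was taken, and its median was 57.7% in the 47 called miRNA genes, against 46.3% in the 214 that were not called. Under 45% none of 91 miRNA genes was called (upper bound 3.97%), against 0.0730% of other nuclear genes. From 45 to 50% it was 3 of 68 (4.41%), against 1.62%. From 50 to 55% it was 10 of 55 (18.2%), against 14.7%. From 55 to 60% it was 16 of 28 (57.1%), against 51.9%, and at 60% or more 18 of 19 (94.7%), against 81.1%. In the conservative list, the interval of the miRNA share contained the share of the other nuclear genes in each class. In the replicate lists it did so in all classes other than 2. Replicate 1 gave 7.35% of miRNA genes from 45 to 50% (interval 2.43 to 16.3), against 1.42% of other genes, and replicate 2 gave all 19 at 60% or more (lower bound 82.4%), against 76.5%. Windows of 55 to 60% made up 10.7% of the miRNA genes, against 5.13% of the other nuclear genes, and those of 60% or more 7.28%, against 1.28%.

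**Figure D5:**
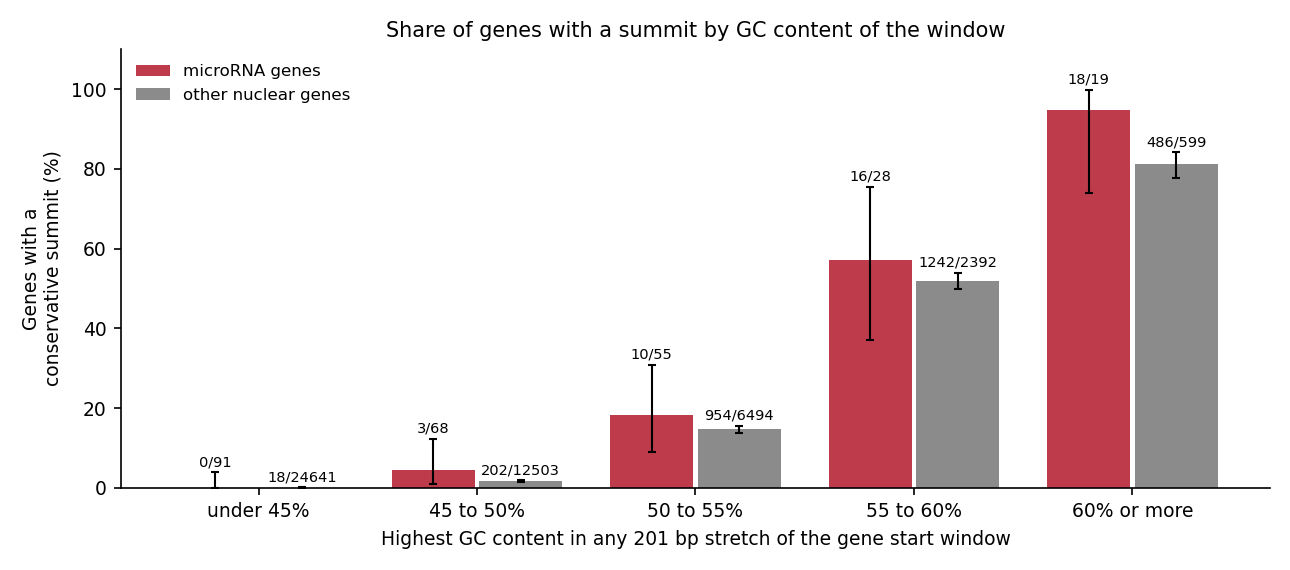
Share of genes with a conservative summit (bars, percent, with 95% exact intervals and counts) by the highest GC content in any 201 bp stretch of the start window, miRNA genes at left and other nuclear genes at right in each pair. The shares are 0 and 0.0730% under 45%, and 94.7% and 81.1% at 60% or more, and in every class of this list the miRNA interval spans the other genes' share.

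Windows of 50% GC or more were also split by context and by family. GC content was not held equal within this class. The called share of miRNA genes was 18.2% from 50 to 55% and 94.7% at 60% or more. Inside protein-coding genes 34 of 62 were called (54.8%, interval 41.7 to 67.5), against 10 of 40 outside (25%, interval 12.7 to 41.2). Named families had 28 of 45 (62.2%, interval 46.5 to 76.2), against 16 of 57 others (28.1%, interval 17.0 to 41.5). These intervals treat each gene as independent, although members of a cluster share summits. The part of GC content in these differences was not tested. Below 50% GC, 0 of 46 inside and 3 of 113 outside were called.

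Signal also moved with GC content. Across the 34 summits, conservative signal and GC content within 100 bp of the summit had a Spearman rho of 0.80, and over all 5795 summits it was 0.65, given as a description. The median GC content at the summits was 55.2% in the miRNA windows, against 54.7% over all summits. The summit of mir-52, the strongest, had 64.2%, and that of mir-35 to mir-40, at a signal of 358, had 55.2%. The summit of mir-71 had 52.7% at a signal of 695, and that of mir-124 had 51.2% at 293. Signals were not compared at equal GC content, and the part of GC content in the difference between the median signals of 312 and 170 was not tested.

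Short motifs were counted in the 201 bp around each summit, on both strands. The letters GAGAGA, which the fly GAGA factor binds, were present at 13 of 34 summits in miRNA windows (38.2%, interval 22.2 to 56.4), against 24.3% of all summits and 31.7% of summits in protein-coding start windows. CAGCTG was present at 5 (14.7%), against 12.01% of all, and CACGTG at 3 (8.82%), against 6.16%. Matches of the 3 motifs were counted separately and may overlap. In the printed stretches, the summits of mir-241, the mir-54 trio, lin-4, mir-58.1 and mir-80 hold GAGAGA or its reverse complement, and those of mir-52, let-7 and mir-35 to mir-40 hold none of the 3 motifs.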

How the data were processed

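Peak lists of SET-16 ChIP-seq from 2 replicates of 1 group of L4 larvae were analysed on build ce11, the same assembly as WBcel235. Per the deposited readme, the lists derive from filtered alignments of the libraries with a control. The aligner and the peak caller behind them are tools not given in the sources used here. A signal accompanies each deposited peak, on a scale the authors did not name in the lists. Each deposited peak also has a score, a scaled irreproducible discovery rate (IDR, a measure of how well replicates rank a peak alike), whose lowest value in the thresholded lists was 830. Each replicate has its own lists, and the whole-series lists combine both libraries.

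Genes came from Ensembl release 115, and symbols, mature miRNAs and genome sequence from RefSeq, where all 261 miRNA genes were matched. Summits were placed at the peak start plus the deposited offset and counted in windows of 1000 bp upstream to 200 bp downstream of each gene start. GC content was taken in 201 bp stretches every 25 bp. Python 3.11.15, numpy 2.4.6, pandas 2.3.3, scipy 1.17.1 and matplotlib 3.10.9 were used, and the window code was tested on simulated data. With 1 group there was no contrast to test, so shares carry 95% exact binomial (Clopper-Pearson) intervals and no p-value. The members, families and lists were chosen with earlier results of these data known. More than 40 genes were called, so the text names the 25 with the highest signal among those called in both replicates (26 with a tie), the 5 main families, mir-1, mir-34, mir-71, mir-124 and lsy-6, the 5 uncalled genes with the highest ranked signal, and neighbours that hold the same summit. Alternatives were other lists, windows and ways to count clusters.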

Additional observations from a re-analysis of the deposited data

How the results depend on the processing

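Of 36 alternative values, 32 stayed within 1.5 times the value reported and 4 moved further. The number of miRNA genes with a summit, 47 as reported, was 33 to 57 over the other lists and windows, 32 with 1 count per cluster and 48 with windows drawn at the hairpins. Taking each replicate's list alone gave 42 to 52 genes in all, 29 to 32 in named families, 31 to 34 inside protein-coding genes, 11 to 18 outside them, and 31 to 42 distinct summits. Outside protein-coding genes, keeping the peaks above the median signal, a stricter limit, left 5 called genes, against 13. The same limit left 28 inside protein-coding genes, against 34, and 24 in named families, against 30. Most of the outside calls therefore came from peaks of weaker signal. Counting each cluster once left 22 inside protein-coding genes, against 34, since genes share summits. With the ranked replicate lists, which reach weaker peaks, 80 genes had a summit in both, against 38. The share of all nuclear genes in both ranked lists was not counted. With windows from 2000 bp upstream to 500 bp downstream, 13 summits in miRNA windows also lay in a protein-coding start window, against 4, because both windows are wider. Windows at the hairpins and counts per cluster by context were chosen after seeing the data. No paired analysis was possible because only 1 group was measured. Precision is limited by 2 replicates, by unknown read depth and by a control that was not analysed here.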

Other observations

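Several summits just outside the windows are close to miRNA genes, and the genes in this paragraph were chosen after their values were seen. Upstream of mir-71, at 1322 bp, lies a conservative summit of 4018, which ranked 3 in the whole list, with 2896 in replicate 1 and 1147 in replicate 2. Upstream of mir-34, at 1803 bp, the signals were 673 in the conservative list, 226 in replicate 1 and 444 in replicate 2. For mir-84 a summit 2301 bp upstream had 539, and replicate 1 had 320.1 and replicate 2 had 218 near it. Widening the window to 2000 bp upstream and 500 bp downstream added 10 miRNA genes, among them mir-34, mir-41, mir-794 (a summit of 420.3 at 456 bp downstream) and mir-795 (82.9 at 1469 bp upstream). With that window 21.8% of miRNA genes were called, against 10.7% of all nuclear genes. With the narrower window of 500 bp upstream to 100 bp downstream it was 12.6%, against 3.46%.

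The summit near mir-4930 (signal 550.0 in the conservative list) lies in DNA that repeats. Shifted by 40 bases along itself, the 101-base stretch at the summit matched at 58 of 61 positions.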
